A study of Mus musculus with 6 samples.

Results

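Small nucleolar RNAs (snoRNAs) and small Cajal body RNAs were examined in granulocyte-monocyte progenitors, marrow cells that give rise to neutrophils and monocytes, after hindlimb ischemia and after a sham operation. Members were all genes of the all-gene table whose name starts with Snord, Snora or Scarna followed by a digit, which gave 78 of 24205 genes. Of these, 45 carry Snord names and are called box C/D genes here, 24 carry Snora names and are called box H/ACA genes, and 9 carry Scarna names. GENCODE M21 lists 150 mouse genes with such names, and those without such a name in the all-gene table are not members here. Of the 59 members high enough to test, none passed an adjusted p of 0.05 between hindlimb ischemia and sham, as for all genes tested (0.0% passed), and the summed levels of each class overlapped between the groups.

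The progenitors came from bone marrow of C57BL/6 mice and were sorted directly into extraction buffer, with 3 libraries from mice with hindlimb ischemia (blood flow to a hind leg interrupted) and 3 from sham mice. Neither group carried a further genotype or agent in the labels, and the labels give neither the age of the mice nor the time after surgery. Expression was measured by bulk RNA sequencing of total RNA. The labels do not say whether the replicates are separate animals, so the p-values reflect no more than the spread of these 6 libraries. In bulk RNA, fewer cells of a type and less RNA per cell cannot be told apart.

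SnoRNAs are short noncoding RNAs that guide enzymes to other RNAs by base pairing, mostly to ribosomal RNA in the nucleolus. Box C/D RNAs hold a C box near the 5′ end and a D box near the 3′ end and guide methylation of the ribose, whereas box H/ACA RNAs fold into hairpins, end in an ACA box and guide the change of uridine to pseudouridine. Small Cajal body RNAs carry one or both kinds of box and modify the RNAs of the spliceosome. Most vertebrate snoRNAs are cut out of the introns of host genes, many of which encode ribosomal proteins, so a host transcript and its snoRNA start as a single molecule but differ in stability.

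The sequences below, from GENCODE M21 transcripts on GRCm38 (the mm10 assembly), are those of the members the results turn on, written 5′ to 3′ on the transcript strand. Capitals mark TGATGA within the first 30 bases and CTGA within the last 20 bases in box C/D genes, and the ACA that starts 5 to 7 bases from the 3′ end in box H/ACA genes. Snord104 at chr11:106500993-106501062 on the plus strand had the highest level of all members. Snord49b at chr11:62603079-62603150 on the plus strand and Snord49a at chr11:62603450-62603521 on the plus strand lie in introns of 1 host gene, 2410006H16Rik, and are 70.7% identical over their alignment. Snora28 at chr12:111540941-111541067 on the plus strand and Snora68 at chr8:70895759-70895889 on the minus strand were the highest box H/ACA genes.
Snord104: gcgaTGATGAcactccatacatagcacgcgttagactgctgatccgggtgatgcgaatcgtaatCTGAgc
Snord49b: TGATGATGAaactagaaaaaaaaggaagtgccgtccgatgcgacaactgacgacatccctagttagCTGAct
Snord49a: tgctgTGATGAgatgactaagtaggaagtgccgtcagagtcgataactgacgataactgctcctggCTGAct
Snora28: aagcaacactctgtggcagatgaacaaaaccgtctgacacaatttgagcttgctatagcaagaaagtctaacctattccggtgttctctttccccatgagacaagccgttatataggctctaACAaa
Snora68: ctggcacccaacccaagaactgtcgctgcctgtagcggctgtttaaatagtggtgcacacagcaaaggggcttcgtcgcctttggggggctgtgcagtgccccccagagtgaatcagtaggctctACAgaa

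Rps12, which encodes a small-subunit ribosomal protein, hosts a member of each class, and the pair is shown because both lie in 1 gene. Snord100 is at chr10:23785750-23785823 on the minus strand and Snora33 at chr10:23785347-23785475 on the minus strand.
Snord100: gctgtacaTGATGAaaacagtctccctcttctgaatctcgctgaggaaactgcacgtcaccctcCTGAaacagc
Snora33: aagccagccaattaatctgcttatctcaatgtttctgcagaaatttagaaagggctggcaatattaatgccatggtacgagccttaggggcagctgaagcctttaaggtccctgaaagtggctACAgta

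The next 3 are shown because they were the only members whose hindlimb ischemia and sham libraries did not overlap. Snord89 is at chr1:39548745-39548854 on the minus strand, Snora78 at chr17:24719676-24719803 on the minus strand and Snora34 at chr15:98519716-98519853 on the minus strand.
Snord89: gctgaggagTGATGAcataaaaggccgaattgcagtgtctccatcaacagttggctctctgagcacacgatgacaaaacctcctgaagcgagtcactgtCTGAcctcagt
Snora78: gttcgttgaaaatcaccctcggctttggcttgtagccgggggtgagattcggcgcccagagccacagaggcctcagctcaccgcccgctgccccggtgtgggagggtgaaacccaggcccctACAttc
Snora34: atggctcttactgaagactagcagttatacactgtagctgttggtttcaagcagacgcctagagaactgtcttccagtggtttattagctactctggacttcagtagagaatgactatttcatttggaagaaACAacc

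The box letters followed the names in most members. The ACA stood 5 to 7 bases from the 3′ end in 24 of 24 box H/ACA genes (100%), in 2 of 45 box C/D genes (4.4%) and in 4 of 9 Scarna genes (44.4%). CTGA was found in the last 20 bases of 44 of 45 box C/D genes (97.8%), all but Snord53, and in 2 of 24 box H/ACA genes (8.3%). The full TGATGA was in the first 30 bases of 28 of 45 box C/D genes (62.2%) and in 0 of 24 box H/ACA genes. Among 1088 other miRNA, snRNA and miscellaneous RNA genes under 300 bases, 0.3% held TGATGA, 6.5% held CTGA and 6.1% held ACA in these windows. Only the transcript strand was searched, CTGA and ACA were counted without regard to each other, and a match describes letters, not a working box. Scarna genes held TGATGA in 4 of 9 and CTGA in 5 of 9.

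Members rested on few reads. TPM, transcripts per 1000000, divides reads by the length of the gene and sets each library to the same sum. Over the 6 libraries the median member averaged 4.21 TPM, with 5.84 TPM for box C/D, 2.90 TPM for box H/ACA and 0.688 TPM for Scarna genes, beside 2.36 TPM for all genes in the table. All 24205 genes given were above 0 TPM in at least 1 library, so these medians cover detected genes only. Of the 78 members, 21 averaged 10 TPM or more and 17 averaged under 1 TPM. Because the genes are short, with median lengths of 84 bases for box C/D, 132 bases for box H/ACA and 140 bases for Scarna genes, a given TPM takes fewer reads than in a longer gene.

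Reads were recovered from TPM and gene length, and came to 32755589, 35718886 and 41624578 in hindlimb ischemia replicates 1, 2 and 3, and to 35054163, 32548023 and 37130483 in sham replicates 1, 2 and 3. The 78 members together held 1153, 1543 and 1534 of those reads in the hindlimb ischemia libraries and 1202, 1259 and 1195 in the sham libraries. That was 0.00384% ± 0.000422 of all reads after hindlimb ischemia and 0.00351% ± 0.000332 in sham (SD, n = 3 each). The median member had 8.5 reads per library, and 41 members averaged under 10 reads. Snora28 had the most, with 146.5 reads per library on average. Only 25 members had 10 or more reads in every library, and 17 members had 0 reads in at least 1 library.

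A count of 10 reads has an exact 95% Poisson interval of 4.80 to 18.4 reads, and a count of 100 reads one of 81.4 to 121.6 reads. These intervals cover counting error only, since reads without molecular identifiers are not independent molecules. The lowest members were Snora5c and Snora36b, each with 2 reads over all 6 libraries. Snora5c had 0 reads in 4 libraries, where a floor of 3 reads per library allows levels up to 1.30 TPM in hindlimb ischemia replicate 1, 1.09 TPM in hindlimb ischemia replicate 2, 1.2 TPM in sham replicate 2 and 1.08 TPM in sham replicate 3. The labels name no step that selects short RNA, and how fully the libraries capture RNA of this length was not tested.

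**Figure D1:**
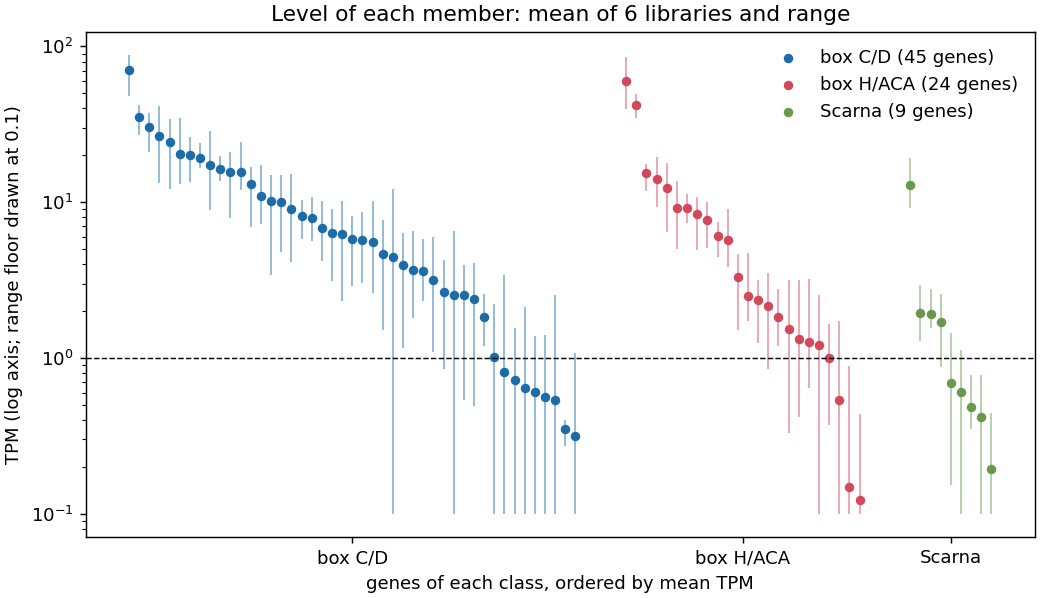
Level of each of the 78 members in TPM on a log axis, by class. Points are means of the 6 libraries, lines run from the lowest to the highest library with 0 drawn at 0.1, and the dashed line marks 1 TPM, under which 17 members lie.

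Summed over each class, the levels of the groups overlapped. Box C/D genes summed to 450.5, 545.6 and 417.5 TPM in the hindlimb ischemia libraries and to 449.6, 473.8 and 416.7 TPM in the sham libraries. The means were 471.2 ± 66.5 TPM after hindlimb ischemia and 446.7 ± 28.6 TPM in sham (SD, n = 3 each), a log2 ratio of 0.08. The highest of the 6 sums came from a hindlimb ischemia library and the lowest from a sham library.

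Box H/ACA genes summed to 208.9, 231.3 and 200.1 TPM in the hindlimb ischemia libraries and to 241.7, 214.0 and 161.0 TPM in the sham libraries. Sham libraries held both the highest and the lowest sum, with all hindlimb ischemia values in between. The means were 213.4 ± 16.1 TPM after hindlimb ischemia and 205.6 ± 41.0 TPM in sham (SD, n = 3 each), a log2 ratio of 0.05. The 9 Scarna genes summed to 26.9, 21.7 and 16.7 TPM after hindlimb ischemia and to 18.4, 21.6 and 20.2 TPM in sham, a log2 ratio of 0.12. No test is given for these sums.

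The ratio of both classes also overlapped between the groups. Box C/D genes held 2.16, 2.36 and 2.09 times the summed TPM of box H/ACA genes in the hindlimb ischemia libraries and 1.86, 2.21 and 2.59 times in the sham libraries. All hindlimb ischemia ratios lay inside the range of the sham ratios. The 3 highest members, Snord104, Snora28 and Snora68, held 23.3%, 24.1% and 24.8% of the members' summed TPM in the hindlimb ischemia libraries and 25.2%, 26.5% and 26.2% in the sham libraries. Those shares did not overlap, and no test is given. The 10 highest held 50.4% ± 2.56 after hindlimb ischemia and 50.8% ± 1.34 in sham (SD, n = 3 each), with overlap.

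**Figure D2:**
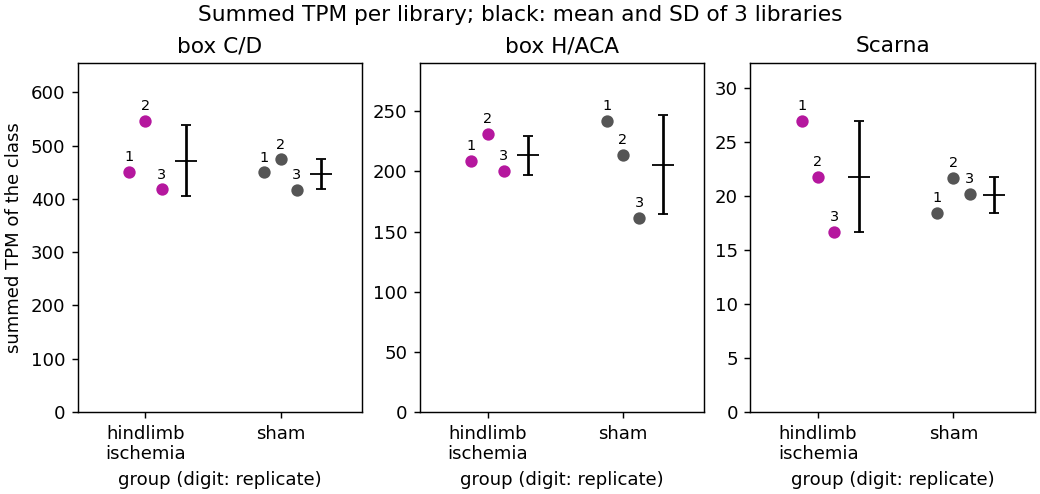
Summed TPM of the 45 box C/D, 24 box H/ACA and 9 Scarna genes in each library, with replicate numbers beside the points and the mean and SD of 3 libraries in black. Within each class the hindlimb ischemia and sham libraries overlap.

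Gene by gene, 59 of the 78 members had at least 1 TPM in at least 3 libraries and were tested together with all 13787 such genes by limma-trend on log2(TPM + 1). The 59 comprise 36 box C/D, 19 box H/ACA and 4 Scarna genes, and the other 19 members were too low. The filter ran between Snora15, whose 3 highest libraries had at least 1.23 TPM, and Snora69, whose 3 highest had at least 0.903 TPM. No member passed an adjusted p of 0.05, and neither did any other gene (0 of 13787, 0.0%), with Benjamini-Hochberg adjustment over all genes. The smallest adjusted p of a member was 0.874 by limma.

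At an unadjusted p under 0.05, limma listed 7 of the 59 members (11.9%), beside 537 of all 13787 genes (3.89%). Hindlimb ischemia was higher in 3 of them, Snord83b, Snora78 and Snora24, where the background is 0.943% of genes. It was lower in 4, Snord89, Snora62, Snora34 and Snora2b, where the background is 2.95%. When limma-voom, which weights values by their read depth, was run on the recovered reads, 0 of the 38 members with 10 reads in at least 3 libraries reached an unadjusted p of 0.05, beside 5.84% of 15623 genes and 0 genes past an adjusted p of 0.05. Of the 7, Snora24, Snora78 and Snora34 were deep enough for that test, each with a limma-voom adjusted p = 0.826, and adjusted p from 0.123 to 1 over all their alternatives. By class, limma listed 2 of 36 box C/D genes (5.6%) and 5 of 19 box H/ACA genes (26.3%), a difference that was not tested. With all libraries the share listed was 18.3% among 142 tested snoRNA and small Cajal body RNA genes outside the name rule, and 10.2% among 587 other tested genes under 300 bases. With no filter 4 of 78 members were listed, beside 3.78% of all genes, and with a mean of at least 5 TPM 3 of 37, beside 3.23%. Without hindlimb ischemia replicate 1 the count was 11 of 59 (18.6%), beside 19.4% of all genes.

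Few members had groups that did not overlap. Every hindlimb ischemia library was above every sham library in 1 of 59 members, Snora78, beside 1.65% of all genes. Every one was below in 2 members, Snord89 and Snora34, beside 6.68% of all genes. Together that is 3 of 59 (5.1%) beside 8.33%. Leaving out 1 library, which leaves fewer values to overlap, gave from 6 to 14 such members of 59, beside 11% to 43.9% of all genes, with the highest of both without hindlimb ischemia replicate 1.

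Median fold changes were near 0 in both classes. Box C/D genes had a median log2 fold change (hindlimb ischemia over sham) of 0.08, positive in 20 of 36, and box H/ACA genes of -0.03, positive in 9 of 19. The median of all genes tested was -0.09, with 30.9% positive, and that of other genes under 300 bases was 0.13, with 68.5% positive. Dividing by size factors moved the median of all genes to 0.02, and the box C/D and box H/ACA medians moved with it to 0.19 and 0.07, so the sign for box H/ACA genes turned. Of all genes at an unadjusted p under 0.05, 24.2% were higher after hindlimb ischemia as deposited and 48.0% with size factors. Among members the split was 3 higher and 4 lower as deposited, and 4 higher and 2 lower with size factors.

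**Figure D3:**
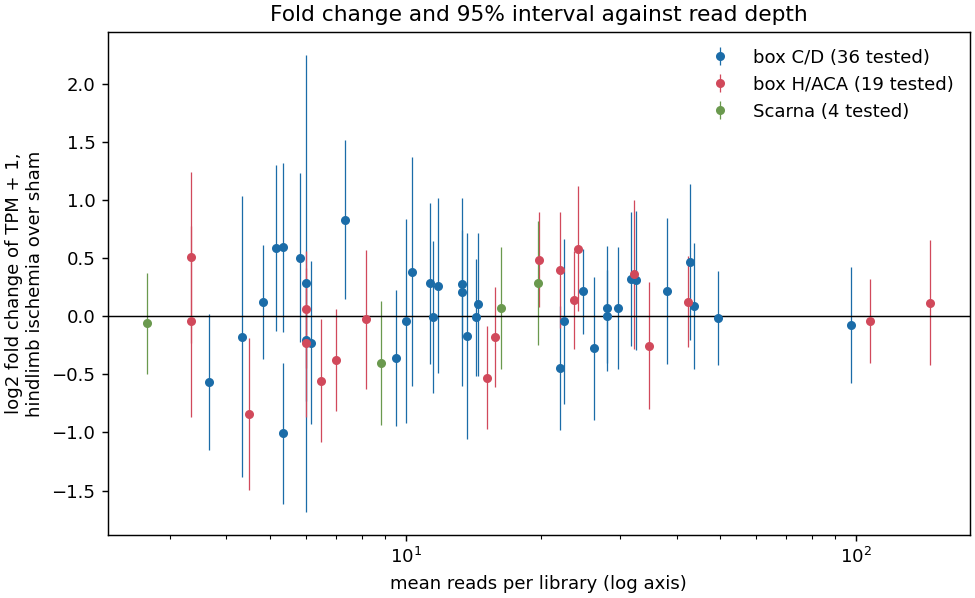
Log2 fold change of TPM + 1, hindlimb ischemia over sham, with 95% limma intervals for the 59 members tested, against mean reads per library on a log axis. For 52 of the 59 the interval includes 0, and the widest interval is that of Snord98.

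The precision set wide limits. The median 95% interval was 1.16 log2 units wide, and the intervals of 52 of 59 members included 0. Among the 16 members with at least 25 reads per library on average, all intervals included 0, with -0.89 the lowest limit and 1.14 the highest. The median standard error was 0.26 for members and 0.18 for all genes tested. With reads scaled to equal library totals, the variance within groups was 1.56 times the mean for the median tested member. Pure counting error gives equality in libraries of equal depth. The variance was 12.7 times the mean for the median of all genes tested and 63.7 times for the members' host genes. Median reads per library were 8.5 for the 78 members and 6521 for the host genes. These ratios were not compared between genes of equal depth.

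Snord104, a guide for methylation of the large-subunit ribosomal RNA in human cells, had 53.7, 79.9 and 69.2 TPM after hindlimb ischemia and 48.2, 87.9 and 82.2 TPM in sham. These came from 57 to 120 reads per library. Its sham libraries spanned its hindlimb ischemia libraries, and the log2 fold change was -0.08 (SE 0.23, 95% interval -0.57 to 0.42).

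The next box C/D genes by level share a host. Snord49b, another guide of large-subunit methylation in human cells, had 40.0, 31.0 and 33.1 TPM after hindlimb ischemia and 27.1, 37.1 and 42.0 TPM in sham, a log2 fold change of -0.01 (SE 0.18). Snord65, a guide for the small-subunit RNA, had 21.2, 37.1 and 36.5 TPM after hindlimb ischemia and 31.2, 36.3 and 21 TPM in sham, a log2 fold change of 0.09 (SE 0.25). In Snord49a the values were 26.1, 15.1 and 20.2 TPM after hindlimb ischemia and 19.7, 25.7 and 13.6 TPM in sham, a log2 fold change of 0.07 (SE 0.24). All of these groups overlapped, and within the hindlimb ischemia group replicate 1 was the highest library for Snord49b and Snord49a but the lowest for Snord65.

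Snord72, in Rpl37, had 20.3, 41.6 and 30.9 TPM after hindlimb ischemia and 32.1, 22.2 and 13.3 TPM in sham. The log2 fold change was 0.47 with a 95% interval of -0.20 to 1.14, the highest upper limit among members with 25 or more reads. Snord55 had 18.6, 34.5 and 16.4 TPM after hindlimb ischemia and 20.2, 13.1 and 19.8 TPM in sham, with 1 high library, hindlimb ischemia replicate 2. Snord69, in Gnl3, had 25, 27.2 and 24.2 TPM after hindlimb ischemia and 34, 24.5 and 12.2 TPM in sham. Here the hindlimb ischemia libraries lay close together and sham replicates 1 and 3 lay on both sides of them.

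Snora28, a guide for pseudouridine in the small-subunit RNA in human cells, had 63.9, 68.6 and 50.6 TPM after hindlimb ischemia and 86.2, 50.6 and 39.6 TPM in sham. It rested on 103 to 185 reads per library, and sham replicate 1 was the highest. Snora68, a large-subunit guide, had 42.6, 44.2 and 37.3 TPM after hindlimb ischemia and 44.7, 49.5 and 34.6 TPM in sham. Log2 fold changes were 0.12 (SE 0.24) for Snora28 and -0.04 (SE 0.16) for Snora68, whose 95% interval of -0.40 to 0.32 was among the narrower ones. After these the level dropped, since Snora7a, the third box H/ACA gene, averaged 16.1 ± 2.00 TPM after hindlimb ischemia and 14.7 ± 2.56 TPM in sham (SD, n = 3 each).

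The pair in Rps12 differed in which libraries were high, at 21 to 36 reads per library for Snord100 and 17 to 57 for Snora33. Both overlap a host exon. Snord100 had 16.7, 24.1 and 17.5 TPM after hindlimb ischemia and 20.8, 20.6 and 16.5 TPM in sham, whereas Snora33 had 9.11, 15.0 and 17.8 TPM after hindlimb ischemia and 11, 15.2 and 6.43 TPM in sham. Snora33 was lowest in sham replicate 3 and highest in hindlimb ischemia replicate 3, and those libraries differed little for Snord100. Log2 fold changes were -0.00 (SE 0.18) for Snord100 and 0.36 (SE 0.29) for Snora33. Their host Rps12 averaged 765.5 TPM after hindlimb ischemia and 771.3 TPM in sham.

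**Figure D4:**
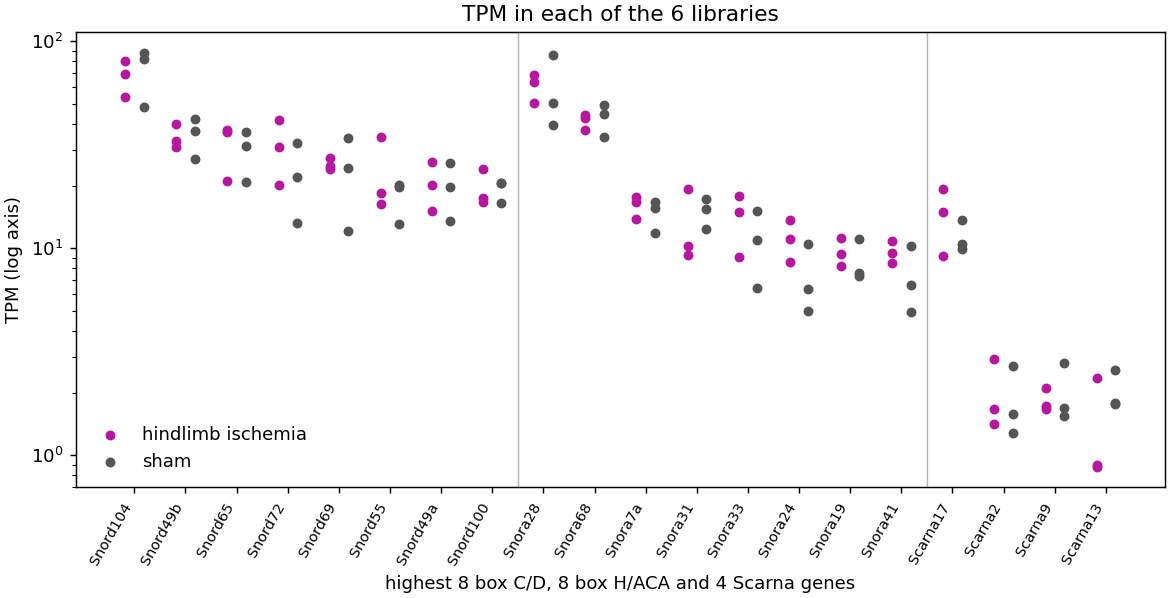
TPM on a log axis of the 8 highest box C/D, 8 highest box H/ACA and 4 highest Scarna genes in the 3 hindlimb ischemia (left of each pair) and 3 sham libraries. The groups overlap in each of the 20 genes.

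Among Scarna genes, Scarna17, a guide for a spliceosomal RNA in human cells, was the highest with 19.3, 15.0 and 9.20 TPM after hindlimb ischemia and 10.5, 13.8 and 9.88 TPM in sham. Its 14 to 26 reads per library gave a log2 fold change of 0.28 (SE 0.24). Scarna2, which guides methylation of the U2 spliceosomal RNA in human cells, had 1.42, 1.68 and 2.93 TPM after hindlimb ischemia and 1.29, 1.58 and 2.71 TPM in sham. Replicate 3 was the highest library of each group, and the groups overlapped. Scarna13 had 2.35, 0.900 and 0.881 TPM after hindlimb ischemia and 2.58, 1.78 and 1.77 TPM in sham, a log2 fold change of -0.40 (SE 0.24, 95% interval -0.93 to 0.13). Scarna9 rested on 2 to 4 reads per library. The remaining 5 Scarna genes averaged under 1 TPM.

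Of 8 snoRNAs listed for a role in cutting ribosomal RNA or as usual reference RNAs, 3 were members. Snord13, needed for an acetylation of small-subunit RNA in human cells, had 15.8, 19.1 and 15.9 TPM after hindlimb ischemia and 7.96, 14.1 and 21.1 TPM in sham, a log2 fold change of 0.31 (SE 0.27). Snord14a, of the U14 family that yeast needs to make the small-subunit RNA, had 10.8, 15.9 and 6.96 TPM after hindlimb ischemia and 14.3, 13.8 and 16.8 TPM in sham, a log2 fold change of -0.45 (SE 0.24). Both groups overlapped in each, and replicate 3 was the lowest hindlimb ischemia library and the highest sham library for Snord14a. Snord118, the U8 RNA that large-subunit processing needs, had 3 to 7 reads per library and averaged 1.98 ± 0.707 TPM after hindlimb ischemia and 1.71 ± 0.480 TPM in sham (SD, n = 3 each). None of the copies of Snord113 to Snord116 was a member.

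The members with the smallest p were mostly ones with few reads. Snord89 had 1, 6 and 3 reads after hindlimb ischemia and 7, 8 and 7 reads in sham, or 0.534, 2.70 and 1.10 TPM after hindlimb ischemia and 3.76, 3.96 and 3.10 TPM in sham. Every hindlimb ischemia library was below every sham library, and the log2 fold change was -1.01 (SE 0.28, 95% interval -1.62 to -0.40, limma adjusted p = 0.874). A count of 1 read has an exact 95% Poisson interval of 0.0253 to 5.57 reads and a count of 8 reads one of 3.45 to 15.8 reads.

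Snora34, in Kansl2, had 3.83, 5.02 and 4.39 TPM after hindlimb ischemia and 9, 5.13 and 6.72 TPM in sham, from 9 to 21 reads per library. The groups did not overlap, by a margin of 5.02 TPM in hindlimb ischemia replicate 2 against 5.13 TPM in sham replicate 2. Its log2 fold change was -0.53 (SE 0.20, 95% interval -0.97 to -0.09, limma adjusted p = 0.874). Snora2b lies in the same host and had 1.72, 1.81 and 1.77 TPM after hindlimb ischemia and 4.75, 3.18 and 1.78 TPM in sham, a log2 fold change of -0.55 (SE 0.24, 95% interval -1.08 to -0.03). It overlapped in sham replicate 3, and the host Kansl2 averaged 117.0 TPM after hindlimb ischemia and 126.9 TPM in sham.

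Snora78, in Snhg9, had 7.35, 10.1 and 10.1 TPM after hindlimb ischemia and 5.08, 6.81 and 6.86 TPM in sham, and all 3 hindlimb ischemia libraries were above all sham libraries. Its log2 fold change was 0.49 (SE 0.18, 95% interval 0.08 to 0.89, limma adjusted p = 0.874), from 11 to 32 reads per library. Rps2 lies on the opposite strand, and since counting by strand is not given in the sources used here, its reads and those of Snora78 cannot be told apart. With libraries scaled to their recovered read totals, the Snora78 groups overlapped.

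Snora24, a small-subunit guide in human cells, had 8.59, 11.1 and 13.7 TPM after hindlimb ischemia and 5.01, 10.5 and 6.38 TPM in sham, with 1 sham library inside the hindlimb ischemia range. Its log2 fold change was 0.58 (SE 0.25, 95% interval 0.04 to 1.12). In Snord83b the groups also overlapped, with 7, 12 and 11 reads after hindlimb ischemia and 8, 2 and 4 reads in sham, a log2 fold change of 0.83 (SE 0.31, 95% interval 0.14 to 1.52). Snora62, in Rpsa, had 1, 1 and 7 reads after hindlimb ischemia and 8, 5 and 5 reads in sham, a log2 fold change of -0.84 (SE 0.30, 95% interval -1.50 to -0.19). None of these passed the adjusted threshold. The 5 smallest p in each direction also took in Snord8 (log2 fold change 0.59), Snord111 (0.59) and Snord42b (-0.57), each from at most 9 reads in any library.

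Snord98, named after its values were seen, shows how 1 library can set a result at this depth. It had 0, 16 and 10 reads after hindlimb ischemia and 4, 3 and 3 reads in sham, or 0, 12.2 and 6.21 TPM after hindlimb ischemia and 3.64, 2.51 and 2.25 TPM in sham. A floor of 3 reads puts the limit at 2.71 TPM in hindlimb ischemia replicate 1. With all libraries the log2 fold change was 0.28 (SE 0.84, limma adjusted p = 0.942). Without hindlimb ischemia replicate 1 it was 1.38 (limma adjusted p = 0.0440), against 0.877 to 1 in its other alternatives, in a fit where 33 genes passed and 19.4% of all genes had an unadjusted p under 0.05.

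Most members sit in a gene with a far higher TPM in these libraries. How fully RNA of the members' length was captured was not tested, so these TPM do not compare amounts in cells. By GENCODE M21, 73 of 78 members lie inside a host gene on the same strand, 50 in introns and 23 overlapping a host exon, and 5 lie in none, namely Snord104, Snord13, Snord118, Scarna17 and Scarna2. For 70 members the host was in the table, with 61 different hosts at a median of 121.9 TPM. The member's level per length was a median of 3.64% of its host's, from 0.144% for Snord15a in Rps3 to 365.1% for Snord89 in Gm15832. The share was 1.27% for the 18 members in 17 ribosomal protein genes and 5.78% for the others. Because strand and the treatment of overlaps are not given, reads of a host exon and of a member inside it cannot be told apart. Nor can reads of a member in an intron be told from reads of the unspliced host transcript it is cut from. The 23 members that overlap an exon averaged 270.8 ± 28.3 TPM in sum after hindlimb ischemia and 263.5 ± 41.8 TPM in sham (SD, n = 3 each), and the 50 in introns 332.5 ± 45.7 TPM after hindlimb ischemia and 306.7 ± 41.0 TPM in sham.

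Across the 70 members, levels of member and host had a Spearman rho of 0.491, a description over points that share libraries and, for 8 hosts, the host itself. Across 50 tested members in 43 hosts, the log2 fold changes of member and host had a rho of -0.114. The host with the smallest p among the listed host genes was Hspa8, a chaperone gene that hosts several box C/D RNAs, at 822.6, 719.6 and 753.8 TPM after hindlimb ischemia and 1239, 1163 and 1139 TPM in sham. Its groups did not overlap, with a log2 fold change of -0.63 (SE 0.12, limma adjusted p = 0.537), and none of the 78 members lies in it.

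**Figure D5:**
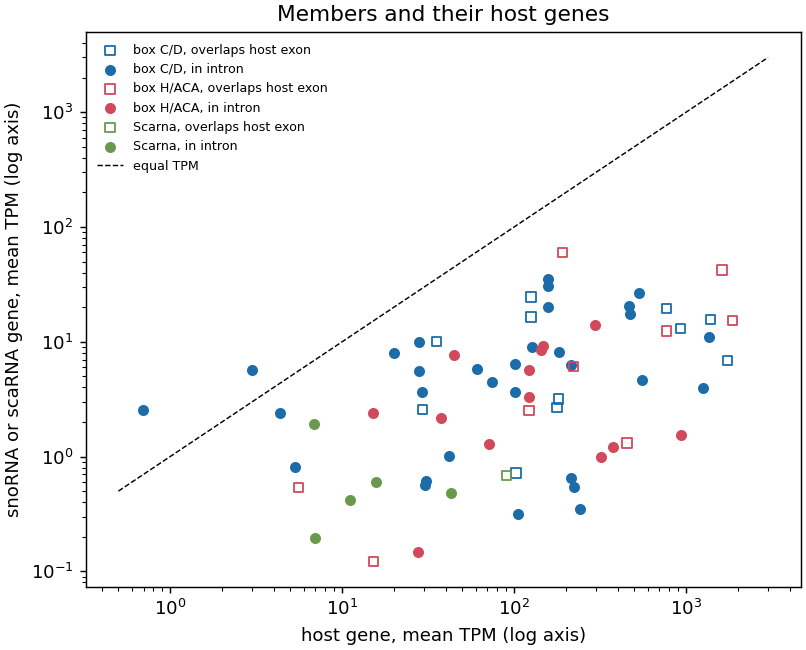
Mean TPM over 6 libraries of 70 members against that of their host genes, both on log axes, with open squares for members that overlap a host exon and filled circles for those in introns. All but 2 points lie below the dashed line of equal TPM.

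The protein partners of snoRNAs were abundant. Of the 4 box C/D core proteins none passed the test in either direction, and Fbl, the methyltransferase fibrillarin, averaged 342.9 ± 56.6 TPM after hindlimb ischemia and 338.7 ± 9.82 TPM in sham (SD, n = 3 each). The list's median log2 fold change was 0.02. Of the 4 box H/ACA core proteins none passed either, with a median of 0.11. Dkc1, the pseudouridine synthase dyskerin, averaged 120.4 ± 8.74 TPM after hindlimb ischemia and 125.3 ± 20.8 TPM in sham. Gar1, another core protein, had 84.0, 84.9 and 80.5 TPM after hindlimb ischemia and 77.3, 77.8 and 70.3 TPM in sham. The Gar1 groups did not overlap, with a log2 fold change of 0.14 (SE 0.13, limma adjusted p = 0.874).

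None of 15 assembly and Cajal body factors passed the test, with means higher after hindlimb ischemia in 4 and lower in 11 and a median log2 fold change of -0.08. None of 12 factors that work with the U3 snoRNA passed, with 3 higher and 9 lower and a median of -0.07. Both medians were close to the -0.09 of all genes tested, and with size factors, where that median was 0.02, both turned positive, to 0.04 and 0.04, with 12 of 15 and 10 of 12 above 0. Among 8 other short noncoding RNAs, 7 were tested, none passed, and the log2 fold changes of all 7 were above 0, with a median of 0.27 as deposited and 0.34 with size factors. Of the 587 other tested genes under 300 bases, 68.5% were above 0 as deposited. Mean TPM was slightly lower after hindlimb ischemia in Rnu11 (2.52, 2.537 in sham) and Rnu12 (1.252, 1.315 in sham). Each had at most 13 reads in any library. In the same list, Rn7sk, the RNA that holds a transcription elongation factor inactive, had 18.5, 16.5 and 24.6 TPM after hindlimb ischemia and 10.9, 14.5 and 18.4 TPM in sham. Its groups overlapped in 1 sham library. Rny1, a Y RNA named after its values were seen, had 2.62, 5.31 and 3.97 TPM after hindlimb ischemia and 0.528, 1.95 and 2.61 TPM in sham, from 1 to 12 reads per library. Its groups did not overlap, with 2.62 TPM after hindlimb ischemia and 2.61 TPM in sham where they came nearest, and its log2 fold change was 0.93 (SE 0.31, limma adjusted p = 0.874).

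The 320 genes annotated as snoRNA or small Cajal body RNA that the names do not cover were lower singly, with a median of 0.730 TPM, and summed to 1203, 1400 and 1335 TPM after hindlimb ischemia and to 1192, 1170 and 1100 TPM in sham. Those groups did not overlap, by a margin of 1203 against 1192 TPM, whereas the 78 members summed to 686.3, 798.6 and 634.3 TPM after hindlimb ischemia and to 709.7, 709.4 and 597.8 TPM in sham and overlapped. The difference between both sets was not tested.

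Markers of the sorted population were high in both groups, with 8 progenitor markers including Mpo and Elane summing to 24330 to 29840 TPM after hindlimb ischemia and 25060 to 30170 TPM in sham. Erythroid markers, 5 of 5 in the table, summed to 17.4 to 45.6 TPM after hindlimb ischemia and 76.6 to 92.4 TPM in sham. In 4 of 4 tested erythroid markers the groups did not overlap, with hindlimb ischemia lower, beside 6.68% of all genes. The same held for 2 of 2 tested B cell markers and 1 of 3 tested macrophage markers. It held for none of the 8 progenitor and 5 mature neutrophil markers. Markers of B cells summed to 44.1 to 45.5 TPM after hindlimb ischemia and 49.7 to 54.6 TPM in sham, and those of T cells, all 3 under 1 TPM on average, to at most 0.178 TPM after hindlimb ischemia and 0.456 TPM in sham. Macrophage markers summed to 14.7 to 18.1 TPM after hindlimb ischemia and 16.1 to 21.3 TPM in sham. Mature neutrophil markers summed to 29.4 to 84.2 TPM after hindlimb ischemia and 46.1 to 117.2 TPM in sham. The part of these cells in the members' values was not tested.

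In the authors' deposited table, 39 members had an adjusted p, from 0.974 to 0.998, and 39 had none. The log2 values of the members in the authors' deposited table ran from -0.18 to 0.10. Their direction is not named, and over the genes tested they ran opposite to hindlimb ischemia over sham in TPM (Spearman rho -0.96).

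Sequence sharing limits some members. A stretch of 30 identical bases is shared with another annotated gene by 16 members, including Snora68, Snora7a, Snora33, Snora19, Snora41, Scarna17, Snord118 and Snora2b, and the values of these are uncertain where reads could be assigned to either copy. All 103 of the 30-base words of Snora19 occur in Gm23658. Snord88a and Snord88c, 94.4% identical, averaged 1.84 ± 0.441 and 3.51 ± 2.63 TPM after hindlimb ischemia and 3.28 ± 3.29 and 3.81 ± 0.788 TPM in sham (SD, n = 3 each).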

How the data were processed

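Granulocyte-monocyte progenitors were sequenced as bulk RNA in 3 hindlimb ischemia and 3 sham libraries. The table the authors deposited gives 24205 genes in TPM, 1 column a library, each summing to 1000000. The same table holds the authors' log2 fold change and adjusted p-value, per the file headers. Reads were placed on mm10, per the submitters' processing notes. Not given in the sources used here are the aligner, counter, annotation, strand setting and test.

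TPM multiplied by the GENCODE M21 exon length fell on whole multiples of the worth of 1 read, within 0.001 reads, in all 6 libraries for all 78 members and for 59.7% of all genes. For the other 9757 genes the smallest length giving whole reads was taken, so their reads may be too few by a common factor. These reads give depth and the limma-voom alternative.

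The 13787 genes that reached 1 TPM in 3 or more libraries were fitted on log2(TPM + 1) with limma 3.58.1 (R 4.3.3), with trend, robust variance and 4 residual degrees of freedom, and Benjamini-Hochberg adjustment over all genes. The fit was also run on simulated data, which did not estimate its power for members with few reads. Fold changes on this scale understate those of low genes. Members named are the 8 Snord, 8 Snora and 4 Scarna genes with the highest mean TPM, the 5 with the smallest p in each direction and the listed classical snoRNAs, 32 in all. Members and lists were chosen with earlier results of these data known. Alternatives were other scalings, filters, pseudocounts (0.1 and 5), a threshold of 0.2, a replicate block, limma-voom and leaving out each library. Scaling to recovered read totals, leaving out members that overlap a host exon, and Snord98 were added after seeing the data.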

Additional observations from a re-analysis of the deposited data

How the results depend on the processing

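Few reads limit most single-gene values, since 41 of 78 members averaged under 10 reads per library. The labels do not pair the libraries. Same-numbered libraries deviated together with correlations of 0.389, 0.182 and 0.0760, and only replicate 1 matched its own number best in both directions. With the replicate block, 69 genes, 1 member (Snord89, limma adjusted p = 0.0265, from 0.192 to 1 in its other alternatives) and 9 members at an unadjusted p under 0.05 (beside 13.7% of all genes) were past the threshold.

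Genes past an adjusted p of 0.05 were 0 in the other alternatives with all libraries, and from 0 to 33 without single libraries, 33 of them without hindlimb ischemia replicate 1. Members past it were from 0 to 1, the 1 being Snord98. Members at an unadjusted p under 0.05 were 4 with no filter (beside 3.78% of all genes), 3 at a mean of at least 5 TPM (37 members tested, beside 3.23%), 0 with limma-voom (beside 5.84%) and from 5 to 11 without single libraries (beside 1.71% to 19.4%). Members whose groups did not overlap were from 6 to 14 with 1 library left out (beside 11% to 43.9% of all genes), which leaves fewer samples to overlap. The box H/ACA median log2 fold change was 0.22 with limma-voom, over fewer genes, and the summed level of each class and the medians of box C/D and box H/ACA genes moved by less than the spread between libraries in all other alternatives run on them.

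Over 33 named members, 46 of 506 alternative log2 fold changes had the opposite sign and 19 members kept their sign throughout. The signs turned to plus for Snord104 with size factors (0.0406) and limma-voom (0.011), for Snord49b with quantile normalization (0.091), size factors (0.0994), limma-voom (0.0543) and read totals (0.0554), for Snord100 with the same (0.12, 0.11, 0.0761 and 0.0671), for Snora68 with the same (0.0488, 0.0747, 0.0379 and 0.0305) and for Scarna9 with quantile normalization (0.0062) and size factors (0.0125). Snord98 had -0.52 at a pseudocount of 0.1. Without single libraries the ranges that crossed 0 were -0.34 to 0.083 for Snord104, -0.19 to 0.12 for Snord49b, -0.13 to 0.34 for Snord65, -0.18 to 0.53 for Snord69, -0.16 to 0.27 for Snord49a, -0.16 to 0.0924 for Snord100, -0.12 to 0.43 for Snora28, -0.18 to 0.0671 for Snora68, -0.0137 to 0.22 for Snora7a, -0.14 to 0.28 for Scarna2, -0.17 to 0.11 for Scarna9, -0.0338 to 0.62 for Snord13, -0.0215 to 0.33 for Snord118 and -0.48 to 1.38 for Snord98. The cause of these turns was not tested.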
